A study of Mus musculus with 6 samples.

Results

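The genes described here encode plasminogen activators and regulators of coagulation that cells of the vessel wall and its surroundings make. They are the urokinase and tissue-type plasminogen activators Plau and Plat, the urokinase receptor Plaur, the serpins Serpine2 and Serpinf1, thrombomodulin (Thbd), tissue factor (F3) and the Kunitz-type inhibitors Tfpi and Tfpi2. These 9 genes were taken by name from the 55487 gene identifiers in the count table, and all 9 were among the 19015 genes with enough counts to be tested. RNA was sequenced from primary skin cells of C57BL/6 mice kept for 48 hours in medium with normal glucose (5 mmol/L, 3 samples) or high glucose (20 mmol/L, 3 samples). The cells of an isolation came from the pooled skin of 4 to 6 mice aged 2 to 3 months, were enriched with magnetic beads against CD31, and were grown through a small number of passages. The samples held between 120192466 and 146881356 counts, and the comparison asked how a glucose level that imitates hyperglycemia changes these genes.

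Fibrinolysis and coagulation act against each other at the surface of a vessel. Tissue factor starts coagulation by binding factor VII, which leads to thrombin and a fibrin clot, and Tfpi blocks that first complex. Thrombomodulin on endothelium captures thrombin and turns it toward the activation of protein C, an anticoagulant. The plasminogen activators produce plasmin, which dissolves fibrin and also opens the matrix to migrating cells during wound repair, and serpins and Kunitz inhibitors hold these proteases in check.

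The label of the samples is endothelial, and many endothelial genes were scarce, while Eng, Flt1 and Egfl7 were more abundant. Pecam1, which encodes CD31, was at 0.128 ± 0.0378 CPM (counts scaled to the library, SD, n = 3) in normal glucose and 0.103 ± 0.0359 CPM in high glucose. Tie1, Cldn5 and Robo4 each had fewer than 20 counts in the 6 samples together, where a count of 3, the limit that a count of 0 allows, corresponds to 0.0212 to 0.0258 CPM per sample. Such limits cover counting error only, and would be higher if read pairs were counted as reads. Esam was at 0.130 ± 0.0330 CPM in normal and 0.129 ± 0.0365 in high glucose, and Emcn at 0.0328 ± 0.0354 and 0.0284 ± 0.00672. Vwf was at 0.944 ± 0.164 and 0.744 ± 0.139 CPM. Cdh5 was at 1.80 ± 0.0797 CPM in normal and 0.876 ± 0.0806 in high glucose, and Kdr at 4.96 ± 0.457 and 5.50 ± 0.228. More abundant were Flt1, which went from 55.3 ± 2.06 to 38.4 ± 0.153 CPM and was lower in high glucose by a log2 fold change of -0.53 ± 0.05, and Egfl7, which went from 11.1 ± 0.740 to 9.44 ± 0.153 CPM and shares 64 exon bases with the more highly counted Agpat2 on the other strand. The call of Egfl7 as lower (-0.23 ± 0.07) was lost without normal glucose replicate 3 or any high glucose replicate, and with a replicate block. The 14 endothelial genes summed to 216, 234 and 243 CPM in the normal glucose samples and to 199.8, 194 and 199.5 in the high glucose samples, most of it from Eng, which mesenchymal cells also express, and then Flt1. Eng was not called (log2 fold change -0.14 ± 0.06, edgeR adjusted p = 0.113), but was called lower with upper quartile or library size scaling, with the GC and length trends removed, with or without a replicate block, and without normal glucose replicate 1 (the smallest edgeR adjusted p, 0.00465), and it shares 61 exon bases with Fpgs on the other strand. Of the 10 endothelial genes tested, 3 were lower and 2 higher in high glucose. For these and the next marker counts, the shares over all genes tested were 14.5% lower and 16.9% higher. The 2 endothelial genes called higher were Tek and Erg, both at low levels. Tek went from 1.29 ± 0.134 to 2.04 ± 0.127 CPM, with a log2 fold change of 0.66 ± 0.12 (edgeR adjusted p = 0.00219). Erg had 5, 8 and 2 counts in normal and 14, 15 and 12 in high glucose. Its log2 fold change of 1.45 ± 0.49 (edgeR adjusted p = 0.0453) rests on these few counts.

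Genes that mark fibroblasts were abundant and mostly higher in high glucose. The 12 fibroblast genes summed to 42021, 38897 and 42126 CPM in normal glucose and 73483, 75881 and 70938 CPM in high glucose, with the most counts in Col3a1. All 12 were tested, and 9 were higher and 3 lower. Col1a1 had a log2 fold change of 0.76 ± 0.07 (SE) and Pdgfra of 0.46 ± 0.05, while the 3 that fell were S100a4 at -1.27 ± 0.07, Twist2 at -0.70 ± 0.10, whose exons overlap those of Gm29100 on the other strand, and Thy1 at -0.40 ± 0.05. The other lists held less. The 8 pericyte and smooth muscle genes summed to 961 ± 45.5 CPM in normal and 919 ± 32.3 CPM in high glucose, with the most counts in Pdgfrb, and 3 of the 7 tested were lower and 1 higher. The 4 lymphatic genes summed to 372 ± 2.35 and 238 ± 5.49 CPM, nearly all of it Pdpn, which fibroblasts express too, and 1 of the 3 tested was lower.

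Blood and epidermal markers were at low levels. The 6 macrophage genes summed to 8.96 ± 0.515 CPM in normal glucose and 6.08 ± 0.408 in high glucose, with the most counts in Csf1r, and 2 of the 3 tested were lower. Exons of Csf1r share 873 bases with those of the more highly counted Hmgxb3 on the other strand, so its counts may not be its own. Ptprc had 16 counts in normal glucose replicate 1 and 0 in the other samples. The 6 keratinocyte genes summed to 2.39 ± 0.500 and 2.34 ± 0.113 CPM, with the most counts in Krt10, and 1 of the 2 tested was higher. Krt14 had 2, 0 and 0 counts in normal and 35, 9 and 31 in high glucose. The 4 platelet lineage genes summed to 7.50 ± 1.10 and 8.31 ± 0.778 CPM, with the most counts in Itga2b, and 1 of the 3 tested was lower. In bulk samples a change in the number of cells of a type and a change in RNA per cell cannot be told apart, and the part that the fibroblast genes' changes, or those of the other marker lists, had in the results below was not tested.

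**Figure D1:**
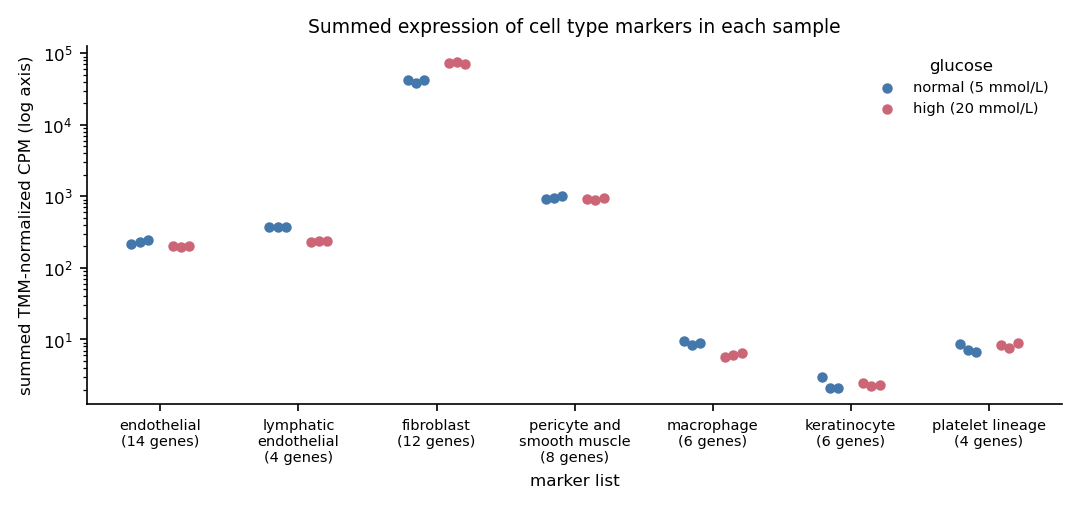
Summed TMM-normalized CPM of each cell type marker list (log axis) in the 3 normal glucose and 3 high glucose samples, with each point a sample. The fibroblast list lies far above the other lists and is higher in every high glucose sample, while the endothelial list is slightly lower there.

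High glucose lowered most of the 9 genes and raised the tissue factor pair. With edgeR's quasi-likelihood test and a Benjamini-Hochberg adjusted p under 0.05, 6 of the 9 were lower in high glucose, against 14.5% of all genes tested (2757 of 19015). Another 2 of the 9, F3 and Tfpi, were higher, against 16.9% of all genes tested (3212), and Serpinf1 was not called. Without high glucose replicate 1 or 3 the genes called higher dropped to 2010 and 1988, and F3 and Tfpi stayed among them. With a fold of at least 1.5 added, 3 of the 9 were lower, namely Plau, Serpine2 and Tfpi2 (6.13% of all genes tested), and neither gene called higher reached it (4.71%). The normal and high glucose samples did not overlap for any of the 9, a property of 46.4% of all genes tested. The median log2 fold change of the 9 was -0.51, against 0.0062 for all genes tested.

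The scaling of the libraries moved all genes together. With library size alone in place of trimmed mean of M values (TMM) factors, the median of all genes shifted by -0.12 on the log2 scale and 72.9% of the calls were lower, against 46.2% with TMM. The upper quartile gave 56.5%. The 8 called members kept their direction and their call under each of the scalings tried, and only Serpinf1 changed sign, with library size alone. A two-sided exact permutation test on log2 CPM gave p = 0.1 for each of the 9 genes, the smallest value that 3 against 3 samples allow.

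**Figure D2:**
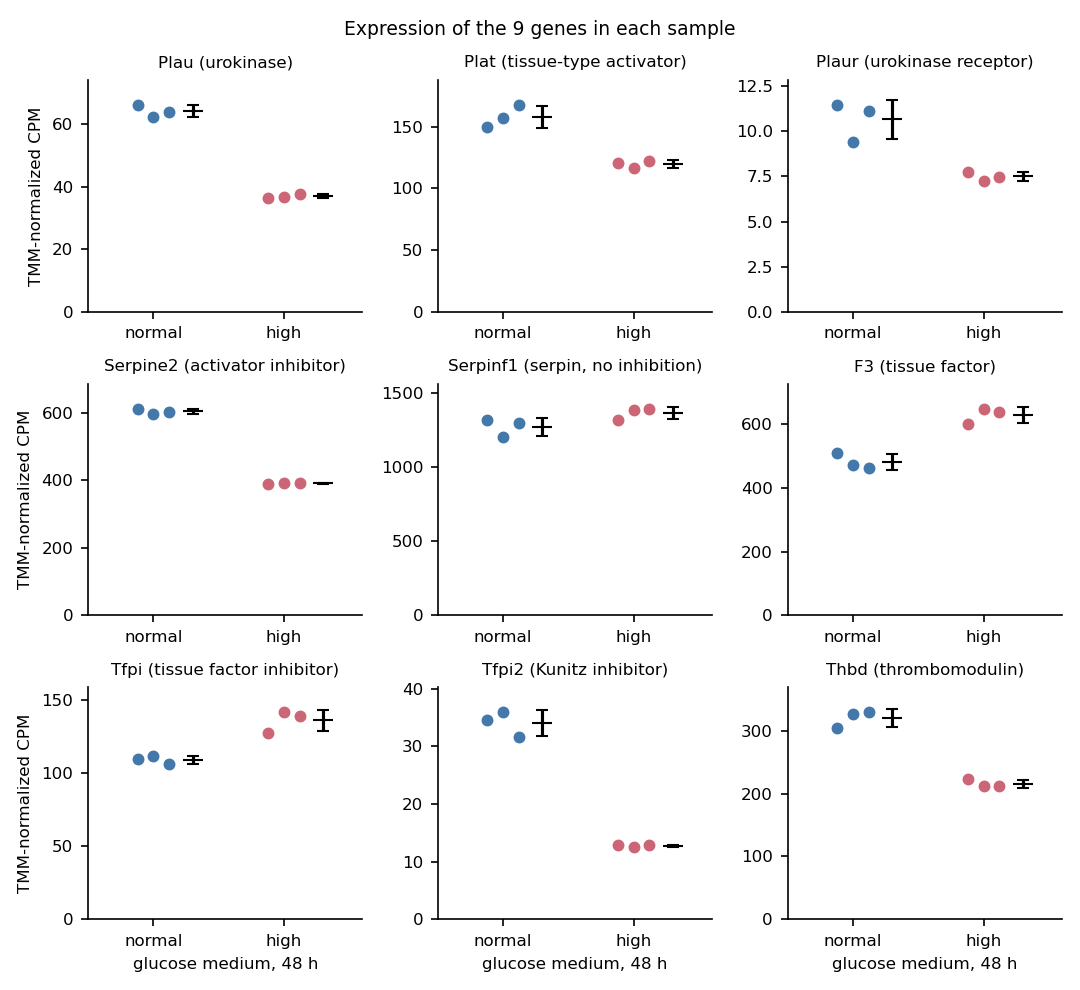
TMM-normalized CPM of the 9 genes in each sample, with points for the 3 normal glucose (blue) and 3 high glucose (red) samples and black marks for the mean ± SD; each axis starts at 0. Relative to its level Tfpi2 has the widest gap of the 9, from a mean of 34.1 to 12.7 CPM, and Serpinf1 the narrowest.

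**Figure D3:**
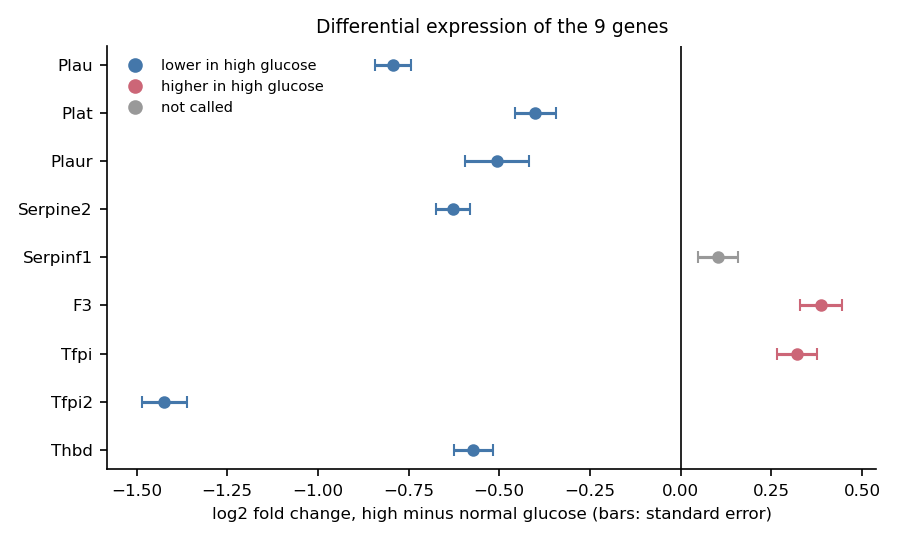
Log2 fold change (high minus normal glucose) of the 9 genes with its standard error, coloured by call. The values run from -1.42 for Tfpi2 to 0.39 for F3.

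Promoter sequences are given for 4 of these genes, the raised pair F3 and Tfpi, and Plaur and Serpine2, which were lower. RefSeq windows (GRCm38.p6, 250 bases before to 50 after a start) were matched for 6 of the 9 genes, using the start nearest to the gene's annotated 5′ end. Capitals mark the AP-1 motif TGANTCA, the GC box GGGCGG, the E-box CACGTG and the TATA motif written TATAAA, searched on both strands, where neighbouring GC boxes can share a base. Over the 32851 windows in the table, 7.81% held the AP-1 motif, 35.7% the GC box, 7.15% the E-box and 13.6% the TATA motif.
F3, chr3:121723287-121723586, plus strand: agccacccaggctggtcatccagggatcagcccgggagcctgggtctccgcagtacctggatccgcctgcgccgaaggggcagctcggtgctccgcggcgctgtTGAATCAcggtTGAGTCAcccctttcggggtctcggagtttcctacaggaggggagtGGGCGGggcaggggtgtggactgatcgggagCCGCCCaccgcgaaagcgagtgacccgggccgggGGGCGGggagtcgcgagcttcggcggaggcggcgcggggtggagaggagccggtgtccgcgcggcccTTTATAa
Tfpi, chr2:84476710-84477009, minus strand: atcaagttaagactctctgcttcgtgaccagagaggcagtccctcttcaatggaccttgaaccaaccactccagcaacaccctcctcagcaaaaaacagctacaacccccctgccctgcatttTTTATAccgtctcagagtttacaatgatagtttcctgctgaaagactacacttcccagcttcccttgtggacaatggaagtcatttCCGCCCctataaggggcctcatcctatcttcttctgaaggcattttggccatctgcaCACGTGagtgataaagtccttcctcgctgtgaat
Plaur, chr7:24462233-24462532, plus strand: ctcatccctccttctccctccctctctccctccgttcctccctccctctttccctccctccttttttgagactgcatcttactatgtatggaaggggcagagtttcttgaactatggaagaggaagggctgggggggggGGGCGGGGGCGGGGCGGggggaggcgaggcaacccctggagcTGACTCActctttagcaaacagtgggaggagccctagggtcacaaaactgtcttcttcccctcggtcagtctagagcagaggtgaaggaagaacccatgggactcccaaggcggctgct
Serpine2, chr1:79858616-79858915, minus strand: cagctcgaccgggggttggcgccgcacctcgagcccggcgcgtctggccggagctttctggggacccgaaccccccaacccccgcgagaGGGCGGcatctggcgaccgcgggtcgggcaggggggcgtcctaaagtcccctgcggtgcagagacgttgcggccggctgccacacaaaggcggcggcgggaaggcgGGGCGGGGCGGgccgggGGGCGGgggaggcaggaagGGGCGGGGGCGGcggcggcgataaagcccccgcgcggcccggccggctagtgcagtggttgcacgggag
The F3 window held the AP-1 motif at 146 and 135 bases before the start and the GC box at 89, 58 and 24 bases before it, with a TATA motif at 43 bases after it. Plaur held the AP-1 motif at 69 bases before the start, beside 3 clustered GC boxes, so that a gene that was higher and a gene that was lower in high glucose both carried these letters. Tfpi, which rose with F3, held a GC box at 41 bases and a TATA motif at 127 bases before the start, an E-box at 16 bases after it and no AP-1 motif. Serpine2 held 6 GC boxes in a window of 77.7% G and C, which lies 2515 bases from the annotated 5′ end. The windows of Serpinf1 and Tfpi2 held none of the 4 motifs and are not printed, so the windows printed are those with a match. A match describes letters in the window and does not show that a factor binds there.

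Both plasminogen activators fell. Plau (ENSMUSG00000021822, chr14:20836660-20843385, plus strand) encodes urokinase, the activator that works mainly at cell surfaces. It was at 66.1, 62.3 and 63.8 CPM in normal glucose and 36.4, 36.8 and 37.6 CPM in high glucose. The high glucose samples lay close together and far below the lowest normal glucose sample. Its log2 fold change was -0.79 ± 0.05 (SE), and the mean fell by 42.3% (adjusted p = 1.56e-06 by edgeR's quasi-likelihood test).

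Plat (ENSMUSG00000031538, chr8:22757727-22782844, plus strand) encodes the tissue-type activator, which endothelium releases and which is most active on fibrin. Its values were 149.9, 157 and 168 CPM in normal glucose and 121, 116 and 122 CPM in high glucose. All high glucose samples were lower, by a smaller margin than for Plau, and the normal glucose samples were the more spread. This gave a log2 fold change of -0.40 ± 0.06, and the mean fell by 24.3% (edgeR adjusted p = 0.000391).

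Plaur (ENSMUSG00000046223, chr7:24462484-24475968, plus strand), the membrane-anchored receptor that holds urokinase at the cell surface, was the least abundant of the 9. It was at 11.5, 9.44 and 11.1 CPM in normal glucose and at 7.76, 7.28 and 7.49 CPM in high glucose. Normal glucose replicate 2 was the lowest of its group and still above every high glucose sample. At a log2 fold change of -0.51 ± 0.09 (edgeR adjusted p = 0.00149), the receptor fell together with its ligand.

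The serpins among the 9 differed from each other. Serpine2 (ENSMUSG00000026249, chr1:79794197-79861180, minus strand) encodes protease nexin, a secreted inhibitor of thrombin, urokinase and plasmin. It was at 613, 598 and 603 CPM in normal glucose and 389, 393 and 393 CPM in high glucose. The samples of each group were close together, with an SD of 7.65 CPM in normal and 1.97 CPM in high glucose, and the groups were far apart. Between them lay a log2 fold change of -0.63 ± 0.05, and the mean fell by 35.3% (edgeR adjusted p = 4.86e-06).

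Serpinf1 (ENSMUSG00000000753, chr11:75409769-75422701, minus strand) encodes pigment epithelium-derived factor, a secreted serpin that does not inhibit proteases and is known for restraining vessel growth. It was at 1313, 1201 and 1296 CPM in normal glucose and 1318, 1381 and 1393 CPM in high glucose. The highest normal and the lowest high glucose sample were almost equal. The log2 fold change of 0.10 ± 0.05 was not called (edgeR adjusted p = 0.181) and became -0.012 with library size scaling. Removing the trends on GC content and transcript length from the libraries gave 0.13, with an edgeR adjusted p of 0.0392, and no call once a replicate block was added (0.0881).

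Tissue factor and its inhibitor rose together. F3 (ENSMUSG00000028128, chr3:121723537-121735048, plus strand) encodes the membrane receptor for factor VII that starts coagulation, and pericytes and fibroblasts around vessels are known to carry it. It was at 509, 470.6 and 463 CPM in normal glucose and 600.1, 649 and 637 CPM in high glucose. Every high glucose sample exceeded every normal glucose sample. Its log2 fold change was 0.39 ± 0.06, and the mean rose by 30.7% (edgeR adjusted p = 0.000562).

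Tfpi (ENSMUSG00000027082, chr2:84432855-84476775, minus strand) encodes tissue factor pathway inhibitor, which binds factor X and then the tissue factor complex. It was at 109, 112 and 106 CPM in normal glucose and 128, 142 and 139 CPM in high glucose. As for F3, high glucose replicate 1 was the lowest of its group and remained above the normal glucose samples. This was a log2 fold change of 0.32 ± 0.06, and the mean rose by 24.9% (edgeR adjusted p = 0.00159). With library size scaling the log2 fold changes were smaller, at 0.20 for Tfpi and 0.27 for F3.

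Tfpi2 (ENSMUSG00000029664, chr6:3962595-3988919, minus strand), a related Kunitz inhibitor that acts on plasmin and other matrix proteases more than on tissue factor, moved the other way. It was at 34.6, 35.9 and 31.7 CPM in normal glucose and 12.8, 12.5 and 12.8 CPM in high glucose. The high glucose samples were nearly equal and all below the lowest normal glucose sample. The log2 fold change of -1.42 ± 0.06 was the largest change of the 9 genes, 2.68-fold lower in high glucose (edgeR adjusted p = 1.22e-07). By its p Tfpi2 ranked 58 among the 19015 genes.

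Thrombomodulin fell. Thbd (ENSMUSG00000074743, chr2:148404466-148408188, minus strand), the thrombin receptor of endothelium, was at 305, 328 and 330.0 CPM in normal glucose and 223, 213 and 212 CPM in high glucose. Normal glucose replicate 1 was the lowest of its group, well above the high glucose samples. Thbd had a log2 fold change of -0.57 ± 0.05, and the mean fell by 32.7% (edgeR adjusted p = 2.34e-05). Procr, the endothelial receptor that presents protein C to the thrombin and thrombomodulin complex, had 27.4 ± 0.939 CPM in normal and 29.5 ± 1.51 CPM in high glucose (SD, n = 3). Its log2 fold change of 0.11 ± 0.06 was not called (edgeR adjusted p = 0.180) and changed sign under library size scaling, while removing the GC and length trends gave 0.15 with an edgeR adjusted p of 0.0253.

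Levels can be compared between genes only per length, here as CPM per kb of the merged exons. Merged exons join those of all annotated transcripts of a gene, from 1747 bases for Tfpi2 to 8287 for Serpine2. They can exceed the length of the transcripts the cells made, which was not measured. The order between genes therefore holds for these lengths only. In normal glucose the order was Serpinf1 (538 ± 25.6 CPM per kb, SD, n = 3), F3 (190.3 ± 9.82), Thbd (86.2 ± 3.68), Serpine2 (73.0 ± 0.924), Plau (27.1 ± 0.813), Plat (25.3 ± 1.44), Tfpi (19.9 ± 0.525), Tfpi2 (19.5 ± 1.25) and Plaur (4.08 ± 0.415). The samples of Plau and Plat overlapped, as did those of Tfpi and Tfpi2, so neither pair could be ordered beyond its spread. In high glucose the order was Serpinf1 (578 ± 17.3 CPM per kb), F3 (249 ± 10.0), Thbd (58.0 ± 1.70), Serpine2 (47.3 ± 0.238), Tfpi (24.9 ± 1.35), Plat (19.2 ± 0.477), Plau (15.6 ± 0.260), Tfpi2 (7.27 ± 0.115) and Plaur (2.87 ± 0.0929). There no neighbours overlapped. On this scale Tfpi thus moved from below the activators to above them, and Plau from level with Plat to below it. With other transcript lengths the starting order could differ.

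Ratios of CPM per kb within each sample show how paired genes shifted against each other, and no test was run on them. The ratio of F3 to its inhibitor Tfpi was 10.1, 9.12 and 9.45 in the normal glucose samples and 10.2, 9.90 and 9.92 in the high glucose samples. These groups overlapped, so both transcripts rose in near proportion. The ratio of Tfpi2 to Tfpi went from 0.977 ± 0.0375 (SD, n = 3) to 0.293 ± 0.0194, without overlap. The ratio of F3 to Thbd, a procoagulant against an anticoagulant transcript, went from 2.21 ± 0.213 to 4.29 ± 0.290 and was higher in every high glucose sample.

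The activators shifted against their partners too. The ratio of Plau to Plaur was 6.67 ± 0.542 in normal and 5.45 ± 0.221 in high glucose, and that of Plau to Plat was 1.07 ± 0.0827 and 0.814 ± 0.0193. Urokinase thus fell more than its receptor or the tissue-type activator. Thbd to Procr went from 6.39 ± 0.408 to 3.99 ± 0.279.

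**Figure D4:**
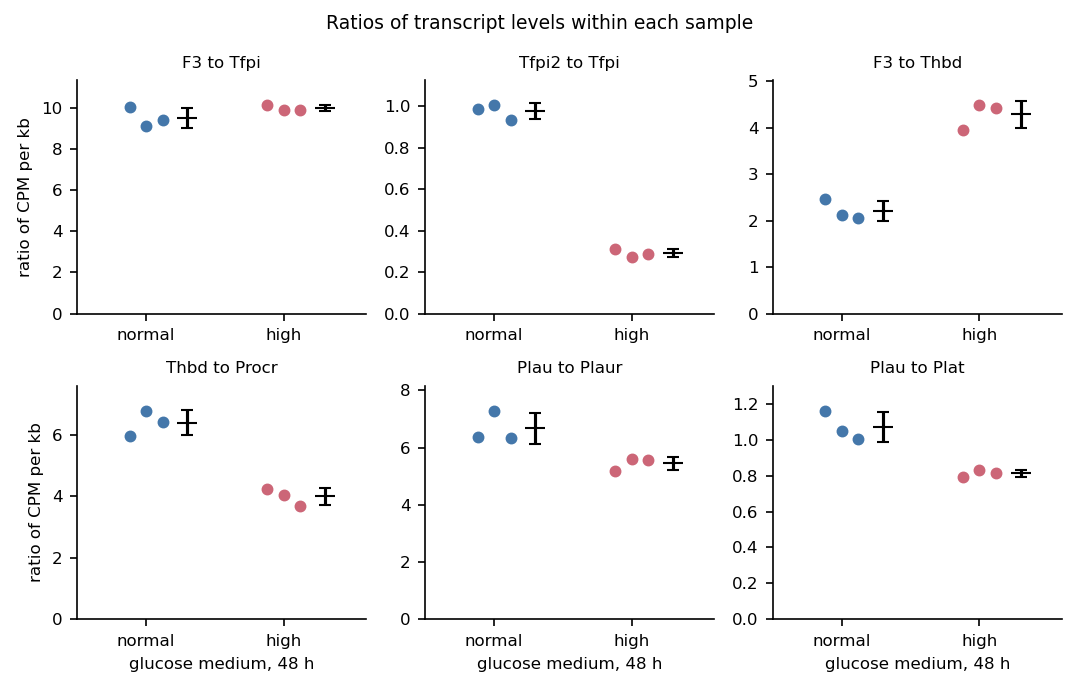
Ratios of CPM per kb in each sample for 6 gene pairs, with points for the normal (blue) and high glucose (red) samples and black marks for the mean ± SD; each axis starts at 0. The F3 to Tfpi ratio overlaps between the groups, and the other 5 do not. How often the ratios of other gene pairs overlap was not computed.

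The members' profiles over the 6 samples were compared by the root mean square (RMS) difference of centred log2 CPM. The closest pair was F3 and Tfpi, at 0.0549, followed by Serpine2 and Thbd at 0.0607 and Plau and Serpine2 at 0.0849. The pair farthest apart was F3 and Tfpi2 at 0.906. Over the 10011 other genes whose mean log2 CPM was 3 or more, the profiles most like F3 were those of Gnl2 (RMS difference 0.0177), Syt11 (0.0240) and Rab29 (0.0247). Those most like Tfpi2 were Ccnd1 (0.0532), Tnfrsf11b (0.0585) and Tnfrsf26 (0.0642). These are likenesses over 6 samples of a single contrast.

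The other fibrinolysis genes moved in both directions. Of the 16 genes described here, 11 were tested, 5 were lower and 2 higher, where 14.5% of all genes tested were lower and 16.9% higher. Their median log2 fold change was -0.45, against 0.0062 for all genes tested. Over the alternatives this median ran from -0.57 with library size scaling to -0.25. Anxa2 and S100a10, which together form a surface receptor for plasminogen, had log2 fold changes of -0.45 ± 0.06 and -0.57 ± 0.10. St14, a membrane protease that can activate urokinase, was at -1.35 ± 0.16 from a low level, 0.949 ± 0.0934 to 0.373 ± 0.0283 CPM. Serpini1, an inhibitor of the tissue-type activator, was at -0.76 ± 0.08, and Serpinb6a, an intracellular serpin whose exons overlap those of Nqo2 and Ripk1 on the other strand, at -0.52 ± 0.06.

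The fibrinolysis genes that rose were a receptor and a serpin. Lrp1, the endocytic receptor that clears activators bound to their inhibitors, was at 1607 ± 121 CPM in normal and 2989 ± 215 CPM in high glucose, and its log2 fold change was 0.90 ± 0.07 (edgeR adjusted p = 8.34e-06), which became 0.59 with the GC and length trends removed. Serpinb2, an inhibitor of urokinase, went from 2.28 ± 0.237 to 5.02 ± 0.738 CPM, with a log2 fold change of 1.14 ± 0.13. Plasminogen itself (Plg) had 3 counts in high glucose replicate 1 and 0 in the other samples, at or below the counting limit.

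Of 33 other coagulation genes, 24 were tested, 6 were lower (14.5% of all genes tested) and 5 higher (16.9% of all genes tested). Library size scaling gave 8 lower and 3 higher, and removing the GC and length trends gave 7 and 7. Without normal glucose replicate 3, or without high glucose replicate 1, 2 or 3, the genes called higher were also 3. The median log2 fold change was -0.06, against 0.0062 for all genes tested. Over the alternatives this median ran from -0.17 with library size scaling to 0.015. The largest fall was in F2rl1, a protease-activated receptor, from 1.91 ± 0.315 to 0.338 ± 0.0885 CPM (log2 fold change -2.49 ± 0.20). F2r, a thrombin receptor, fell at a higher level, from 234 ± 6.24 to 175 ± 1.77 CPM (log2 fold change -0.42 ± 0.05). F7, the ligand of tissue factor, had 52, 40 and 23 counts in normal and 9, 6 and 17 counts in high glucose, and its log2 fold change of -1.83 ± 0.42 rests on these few counts. The others called lower were F13a1, which crosslinks fibrin (-0.99 ± 0.15), Entpd1, which breaks down ADP outside the cell (-0.76 ± 0.12), and Mcfd2, which helps export factors V and VIII (-0.28 ± 0.05). F13a1 and Entpd1 were at low levels, from 1.10 ± 0.119 to 0.555 ± 0.0394 and from 3.29 ± 0.162 to 1.95 ± 0.259 CPM.

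Gas6, a vitamin K-dependent ligand of receptor kinases, had the highest level of the coagulation genes called higher. It went from 1009 ± 31.2 to 1936 ± 28.9 CPM, with its log2 fold change at 0.94 ± 0.05 (edgeR adjusted p = 4.71e-07). Serpina10, an inhibitor of factor X that uses protein Z, had a log2 fold change of 0.94 ± 0.10 at a low level, 1.55 ± 0.0926 to 2.97 ± 0.138 CPM. Hs3st1, an enzyme that makes antithrombin-binding heparan sulfate, had a log2 fold change of 0.65 ± 0.06. Vkorc1, which recycles vitamin K, was at 0.23 ± 0.06 and lost its call with library size scaling (edgeR adjusted p = 0.161, the largest over its alternatives, which went down to 0.000279), as it did without normal glucose replicate 3 or any high glucose replicate. Fgg, a fibrinogen chain, had 10, 14 and 13 counts in normal and 23, 21 and 25 in high glucose, and its call (0.90 ± 0.30, edgeR adjusted p = 0.0419) was lost when any sample was left out, with a replicate block, DESeq2, library size scaling, no filter and halved counts, and with the GC and length trends removed beside the block. Pros1, the cofactor of protein C, was at 656 ± 24.5 and 608 ± 21.9 CPM and was not called (log2 fold change -0.11 ± 0.05, edgeR adjusted p = 0.147), although library size scaling gave -0.23 with an adjusted p of 0.00773.

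**Figure D5:**
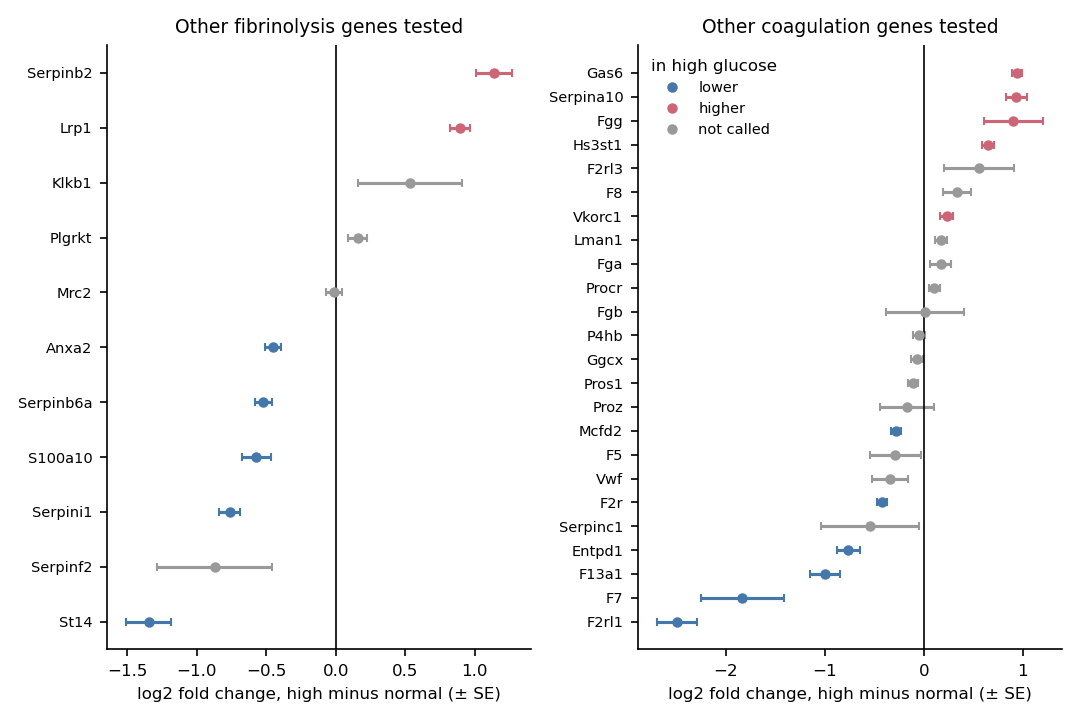
Log2 fold change (high minus normal glucose) with its standard error for 11 other fibrinolysis genes (left) and 24 other coagulation genes (right) tested, coloured by call. Values lie on both sides of 0 in each list, from -2.49 for F2rl1 to 1.14 for Serpinb2.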

How the data were processed

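Polyadenylated RNA of 6 samples was measured. The deposited values are raw counts per gene; per the labels and methods of the authors, reads were trimmed with Trimmomatic, aligned to GRCm38 with HISAT2 and counted with StringTie. Versions, annotation and strand setting are not given in the sources used here, and the labels and the methods name different RNA kits and sequencers. Of 55487 identifiers, 346 had no symbol in the name table (0.0340% of counts). Positions and exon lengths came from GENCODE M21 (GRCm38). In GENCODE M21 no member's exons overlapped those of another gene, on either strand. Whether this holds in the annotation used for the counts is not known.

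Genes were filtered with filterByExpr (minimum count 10, total 15), scaled with TMM factors and tested with edgeR 4.0.16 quasi-likelihood in R 4.3.3, with group as the only term. P-values were Benjamini-Hochberg adjusted over all 19015 genes and called under 0.05. The standard error is the log2 fold change divided by the square root of its F statistic. The biological coefficient of variation was 8.44%. No replicates agreed within counting noise (lowest chi-square per degree of freedom 9.64). The edgeR script was tested on simulated data with known changes. Alternatives were the edgeR likelihood ratio test, DESeq2 1.42.0, limma 3.58.1 voom, robust fitting, other scalings, filters, thresholds, halved counts (in case read pairs were counted as reads), a replicate block, removal of GC and length trends (mgcv 1.9.3) and leaving out each sample.

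The study's legends count 3 per group of mice, while the labels describe cells pooled from 4 to 6 mice, and neither says whether each replicate is a separate isolation. The p-values therefore measure the spread between these samples. The members and lists were chosen with earlier results of these data known. Named genes are the 9 members; every called gene of the fibrinolysis and coagulation lists (at most 12 a list, by p) with Plg, F2r, Procr, Pros1 and F7; the gene with the most counts of each marker list with Pecam1, Cdh5, Kdr, Col1a1, Pdgfra, Ptprc, Krt14 and Itga2b; and the 3 genes nearest in profile to the member with the largest rise and to that with the largest fall. Tie1, Cldn5, Robo4, Esam, Emcn, Vwf, Flt1, Egfl7, Tek, Erg, S100a4, Twist2 and Thy1 were named after their values were seen.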

Additional observations from a re-analysis of the deposited data

How the results depend on the processing

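Over the alternatives, 8 of the 9 members kept direction and call in every fit, and leaving out any sample kept 6 lower and 2 higher. Left-out ranges of the log2 fold change were -0.82 to -0.79 for Plau, -1.48 to -1.39 for Tfpi2, 0.35 to 0.41 for F3 and 0.05 to 0.11 for Serpinf1. Serpinf1 turned to -0.01177 with library size scaling (adjusted p = 0.879) and passed at 0.13 (0.0392) with GC and length trends removed but not with the replicate block added to that (0.0881), within 0.0392 to 0.879 over its alternatives. Scaling by library size called 4884 genes lower and 1819 higher, against 2757 and 3212, and the upper quartile 3407 and 2622. Leaving out samples gave 2048 to 3065 lower and 1988 to 3149 higher genes, with 2010 higher without high glucose replicate 1 and 1988 without high glucose replicate 3. An adjusted p under 0.01 gave 1671 and 1946. A fold of at least 1.5 gave 1165 and 895, and 3 members lower and 0 higher, since F3 and Tfpi changed by 1.31 and 1.25 fold. Procr turned to -0.0065 with library size scaling and passed at 0.15 with the trends removed (0.0253) and with the replicate block added to that (0.0404), and Pdgfrb, at 0.08, turned to -0.033 with library size scaling, -0.017 with the trends removed, -0.01653 with the trends removed and the replicate block, and -0.0047 to 0.12 without a sample. The other coagulation genes called higher were 3 to 6 without a sample, and 3 without high glucose replicate 1, 2 or 3, or normal glucose replicate 3, or with library size scaling, against 5. The causes were not tested. The replicate block gave 2418 lower and 2909 higher genes and changed no member's call but ended those of Egfl7 and Fgg; same-numbered samples did not deviate together (r = -0.0248, 0.00377 and 0.0127) and 2 of 6 correlated best with their own number. The ratios were computed on all 6 samples only, and no test was run on them. Depth does not limit the members, whose lowest count was 846, but it limits F7, Fgg, Plg and Krt14. These are 3 samples a group, and edgeR's tests read the spread between them.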
